A study of Homo sapiens with 2 samples.

Results

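The cyclins described here are 10 genes, CCND1, CCND2 and CCND3 (D type), CCNE1 and CCNE2 (E type), CCNA2, CCNB1, CCNB2, CCNF and CCNG2. Their members were taken as every probe set that the platform's annotation gives to 1 of these symbols alone, which came to 26 probe sets, out of 54675 probe sets and 19775 named genes on the array. The cells were AGS, a human epithelial line of gastric adenocarcinoma origin, and they were profiled on 2 one-colour Affymetrix arrays. One array holds RNA of cells after silencing of galectin-3 by synthetic double-stranded small interfering RNA, and the other RNA of cells labelled control. The number and sequence of the small interfering RNAs used, the treatment of the control cells and the time after transfection, not given in the sources used here, limit what the comparison stands for. Galectin-3, the product of LGALS3, is a beta-galactoside-binding lectin, and the question was which transcripts change when it is silenced.

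Cyclins are the regulatory subunits of cyclin-dependent kinases (CDKs), and each type is present in its own part of the cell cycle. D-type cyclins bind CDK4 and CDK6 in G1, phosphorylate RB and follow growth signals. E-type cyclins bind CDK2 at the entry into S phase, cyclin A2 binds CDK2 and CDK1 in S phase and G2, and the B-type cyclins bind CDK1 and drive mitosis. Cyclin F does not activate a CDK but is the substrate-binding subunit of an SCF ubiquitin ligase. Cyclin G2 is an atypical cyclin whose transcript is high in cells that have left the cycle and is induced by FOXO transcription factors.

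With 1 array per group there was no replicate, so no difference below could be tested, and precision is limited by the number of arrays. Values are MAS5 signals, a linear brightness per probe set, and a log2 ratio is silenced over control. A signal counted as measured above a floor of 109.5 on the silenced array and 138.4 on the control array, which is the 95th percentile of the signals of 135 olfactory receptor probe sets. In all 10514 genes were measured on at least 1 array, with a median log2 ratio of -0.02. The middle 95% of their log2 ratios ran from -1.07 to 1.10. Of these genes 9579 were above both floors. For the other 935 a floor stands in for 1 of the signals, so their ratios are bounds, and 352 of them have no direction. The measured cyclins were all above both floors. Where a gene had several probe sets above both floors (4728 genes), their log2 ratios had a pooled SD of 0.32, which makes 0.45 for a difference between 2 genes. This spread is between probe sets read from one RNA, with no repeat culture in it. LGALS3 had a signal of 2699.8 on the silenced array and 20206 on the control array. The epithelial markers EPCAM, KRT8, KRT18 and KRT19 were above the floor on both arrays with signals from 16876 to 35515. The fifth epithelial marker, CLDN4, was dimmer, with 2871.4 on the silenced array and 1355.7 on the control array, a log2 ratio of 1.08. Above a floor were 0 of 3 leukocyte markers, 1 of 3 endothelial markers and 2 of 6 fibroblast markers, of which COL1A1 read 1502.0 on the silenced array and 816.3 on the control array. Other COL1A1 probe sets were dimmer and differed in direction. On the silenced and control arrays 202310_s_at read 254.4 and 176.4, and 217430_x_at read 133.5 and 195.5. The ratios of 3' to 5' signal, a measure of RNA integrity, were 0.936 and 0.980 for GAPDH and 1.13 and 1.14 for ACTB on the silenced and control arrays.

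Of the 10 cyclins, 9 were measured. CCNA2, CCNB2 and CCNF were at least 2-fold lower on the silenced array, a size that 3.07% of all measured genes passed, and CCND3 was at least 2-fold higher, which 3.31% passed. CCND1, CCNB1, CCNE1, CCNE2 and CCNG2 passed in neither direction, and CCND2 was under the floor on both arrays. The D-type cyclins differed among themselves by more than any other type. Cyclins A, B and F were lower with log2 ratios from -1.79 to -0.97, whereas those of the E type were 0.23 and 0.28. In a bulk sample, fewer cells in a phase of the cycle and less RNA per cell cannot be told apart.

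Promoters of the lower cyclins CCNB2, CCNB1 and CCNA2 are printed here, and that of CCNF, also lower, is not. The reason for printing them is that transcription of mitotic cyclins is known to run through a few short elements close to the start site. These are CCAAT boxes, bound by the factor NF-Y, and the cell-cycle genes homology region (CHR), bound by MuvB complexes that repress in quiescent cells and activate with MYBL2 and FOXM1. Each sequence runs from 250 bases before to 50 after the start, from RefSeq on GRCh38.p14, and is written 5' to 3' on the gene's strand. Capitals mark the CCAAT box on either strand and the CHR on either strand, spelled TTTGAA. In CCNA2 alone they also mark a variant of the CHR, spelled CTTGAA.
CCNB2, chr15:59104896-59105195, plus strand: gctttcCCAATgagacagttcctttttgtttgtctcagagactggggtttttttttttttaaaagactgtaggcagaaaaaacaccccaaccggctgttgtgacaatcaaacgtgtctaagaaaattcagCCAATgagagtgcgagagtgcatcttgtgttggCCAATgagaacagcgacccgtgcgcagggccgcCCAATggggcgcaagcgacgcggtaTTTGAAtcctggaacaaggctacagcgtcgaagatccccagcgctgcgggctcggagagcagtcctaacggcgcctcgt
CCNB1, chr5:69166900-69167199, plus strand: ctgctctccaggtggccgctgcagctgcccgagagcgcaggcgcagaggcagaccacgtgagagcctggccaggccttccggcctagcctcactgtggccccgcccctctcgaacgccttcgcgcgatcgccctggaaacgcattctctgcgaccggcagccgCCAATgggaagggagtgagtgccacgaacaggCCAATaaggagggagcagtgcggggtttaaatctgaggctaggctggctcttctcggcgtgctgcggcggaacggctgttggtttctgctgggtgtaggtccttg
CCNA2, chr4:121823834-121824133, minus strand: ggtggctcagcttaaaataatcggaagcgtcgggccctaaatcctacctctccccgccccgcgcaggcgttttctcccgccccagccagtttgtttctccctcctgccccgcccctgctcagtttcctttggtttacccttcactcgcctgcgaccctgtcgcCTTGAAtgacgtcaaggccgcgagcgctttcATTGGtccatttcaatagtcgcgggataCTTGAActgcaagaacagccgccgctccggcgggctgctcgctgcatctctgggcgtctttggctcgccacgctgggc
CCNE1, chr19:29811741-29812040, plus strand, shown for comparison as a cyclin that was not lower: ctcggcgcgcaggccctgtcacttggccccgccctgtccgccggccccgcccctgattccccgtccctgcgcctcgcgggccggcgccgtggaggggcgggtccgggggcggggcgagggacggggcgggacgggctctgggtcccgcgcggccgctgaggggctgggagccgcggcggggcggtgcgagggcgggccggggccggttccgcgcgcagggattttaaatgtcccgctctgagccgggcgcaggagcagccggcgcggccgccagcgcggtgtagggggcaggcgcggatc

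CCNB2 had 4 CCAAT boxes and 1 CHR in this window. CCNB1 had 2 CCAAT boxes and neither TTTGAA nor CTTGAA. Other spellings of the CHR were not searched in any promoter, so whether CCNB1 holds another form was not tested. In CCNB2 the last 3 CCAAT boxes began 120, 87 and 54 bases before the start and the CHR began 29 bases before it. CCNA2 had 1 CCAAT box and the letters of the variant CHR at 87 and 28 bases before the start. Directly after the first of these, 81 bases before the start, began a cyclic AMP response element, spelled TGACGTCA. CCNE1 had no CCAAT box and neither form of the CHR. Across 22198 promoters of protein-coding genes in the same table, 34.7% held at least 1 CCAAT box on either strand and 3.61% held 3 or more. The CHR letters were in 12.4%, the variant in 9.36% and the cyclic AMP response element in 2.26%. These matches describe letters in a window and not bound sites.

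Promoters of 6 of the 10 cyclins are described one by one, 8 in all, of which CCND3 had 3. None of the 3 CCND3 promoters held either form of the CHR, 2 of them held 1 CCAAT box each, and the most upstream held the FOXO letters GTAAACA on the gene's strand. The FOXO letters were in 2.85% of all promoters on either strand. The CCNG2 promoter held no FOXO letters, CCAAT box, CHR or cyclic AMP response element. GC boxes, spelled GGGCGG, were in 56.3% of promoters on either strand and in 7 of the 8 examined here, and the last CCAAT box of CCNB2 overlaps one. The E2F letters were searched on both strands as TTTCCCGC, as TTTCGCGC, as TTTGCCGC and as TTTGGCGC, and were in 4.10% of promoters and in 0 of these 8.

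CCND1, the D-type cyclin known as a target of Wnt, RAS and AP-1 signalling, was represented by probe set 208712_at, with a signal of 2940.5 on the silenced array and 5459.2 on the control array. This is a log2 ratio of -0.89, or 53.9% of the control signal, short of 2-fold, and 4.27% of measured genes had a lower ratio. A second CCND1 probe set, 208711_s_at, read 1758.1 on the silenced array and 2373.2 on the control array, a log2 ratio of -0.43. Both probe sets were lower on the silenced array, and they differed by 0.46, so the size of the CCND1 difference depended on the probe set.

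CCND2, the third D-type cyclin and likewise a partner of CDK4 and CDK6, was not detected above the floor by any of its 4 probe sets. Its highest, 231259_s_at, read 96.1 on the silenced array and 87.2 on the control array. The other 3 lay between 6.40 and 41.4 on the silenced array and between 2.90 and 17.3 on the control array. At such signals no ratio is given. Whether the transcript was absent cannot be read from signals under the floor.

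CCND3, the D-type cyclin best known from lymphoid and differentiating cells, went the other way. Probe set 201700_at read 5311.9 on the silenced array and 1881.1 on the control array, a log2 ratio of 1.50, or 2.82-fold. Only 91 of the 10514 measured genes had a higher ratio. The other CCND3 probe set, 1562028_at, read 14.2 on the silenced array and 73.0 on the control array, both under the floors. The CCND3 difference therefore rests on a single probe set.

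Among the D-type cyclins the log2 ratio of CCND3 exceeded that of CCND1 by 2.39, or by 1.93 with the weaker CCND1 probe set. A common scaling factor cancels in this difference, and the first value is 5.30 times the spread of 0.45. CCND3 and CCND1 thus differed by more than probe sets of a gene usually do, although whether this would recur in other cultures was not tested.

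**Figure D1:**
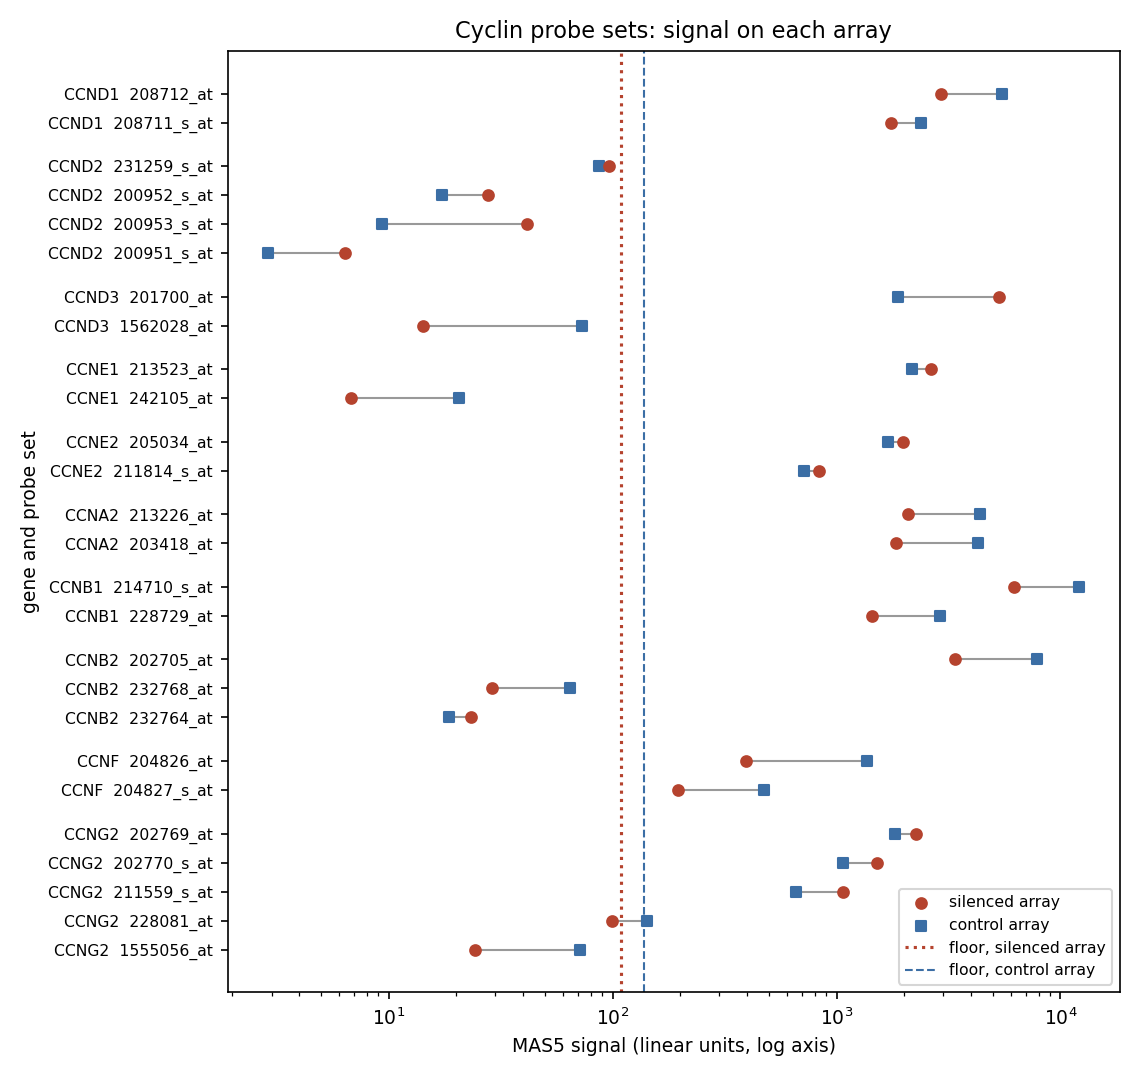
MAS5 signal (log axis) of each of the 26 cyclin probe sets on the silenced array (red circles) and the control array (blue squares), with the floors at 109.5 and 138.4 as vertical lines. CCND3 201700_at lies to the right on the silenced array, the CCND1, CCNA2, CCNB1 and CCNF pairs lie to the left of the control, and all CCND2 signals are under the floors.

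The E-type cyclins, which activate CDK2 at the start of S phase, were both slightly higher on the silenced array as deposited. CCNE1 read 2653.4 on the silenced array and 2180.0 on the control array with probe set 213523_at, a log2 ratio of 0.28, and its second probe set was under the floor. CCNE2 read 1987.5 on the silenced array and 1691.7 on the control array with 205034_at, a log2 ratio of 0.23. Its other probe set, 211814_s_at, read 832.8 and 714.7, a log2 ratio of 0.22. These ratios are smaller than the SD of 0.32 between probe sets of a gene, and with the poly-A controls set equal they became 0.05 for CCNE1 and -0.001 for CCNE2. No direction is settled for the E type.

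Cyclin A2, needed for S phase and the entry into mitosis, was lower with both of its probe sets. The first, 213226_at, read 2089.0 on the silenced array and 4395.3 on the control array, a log2 ratio of -1.07. The second, 203418_at, read 1844.1 and 4291.3, a log2 ratio of -1.22. CCNA2 was 2.10-fold lower by the first and 2.33-fold lower by the second.

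CCNB1 encodes the main mitotic partner of CDK1. Its probe set 214710_s_at read 6209.8 on the silenced array and 12126 on the control array, a log2 ratio of -0.97, just short of 2-fold. Probe set 228729_at read 1436.3 and 2899.0, a log2 ratio of -1.01, just past it. The 2 probe sets differed by only 0.05, so whether CCNB1 counts as 2-fold lower depends on which of them is used. CCNB2, a B-type cyclin found at the Golgi, read 3366.8 on the silenced array and 7828.9 on the control array with 202705_at. This is a log2 ratio of -1.22, or 2.33-fold lower, and its other 2 probe sets were under the floor on both arrays.

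CCNF, the ubiquitin ligase subunit, had the lowest ratio of the cyclins measured. Probe set 204826_at read 395.6 on the silenced array and 1365.9 on the control array, a log2 ratio of -1.79, and only 30 measured genes had a lower one. Probe set 204827_s_at read 195.8 and 476.3, a log2 ratio of -1.28. CCNF was 3.45-fold lower by the first and 2.43-fold lower by the second, and the second stood close to the floor.

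CCNG2, the atypical cyclin of cells outside the cycle, had 5 probe sets that did not all go the same way. Those with the strongest signals, 202769_at, 202770_s_at and 211559_s_at, read 2268.7, 1510.3 and 1070.5 on the silenced array. On the control array the same 3 read 1821.8, 1064.5 and 661.5, which gives log2 ratios of 0.32, 0.50 and 0.69. All 3 were higher on the silenced array and none reached 2-fold. The fourth, 228081_at, was under the floor on the silenced array at 99.0 and just above it on the control array at 142.8, and the fifth, 1555056_at, was under it on both with 24.3 and 71.3.

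**Figure D2:**
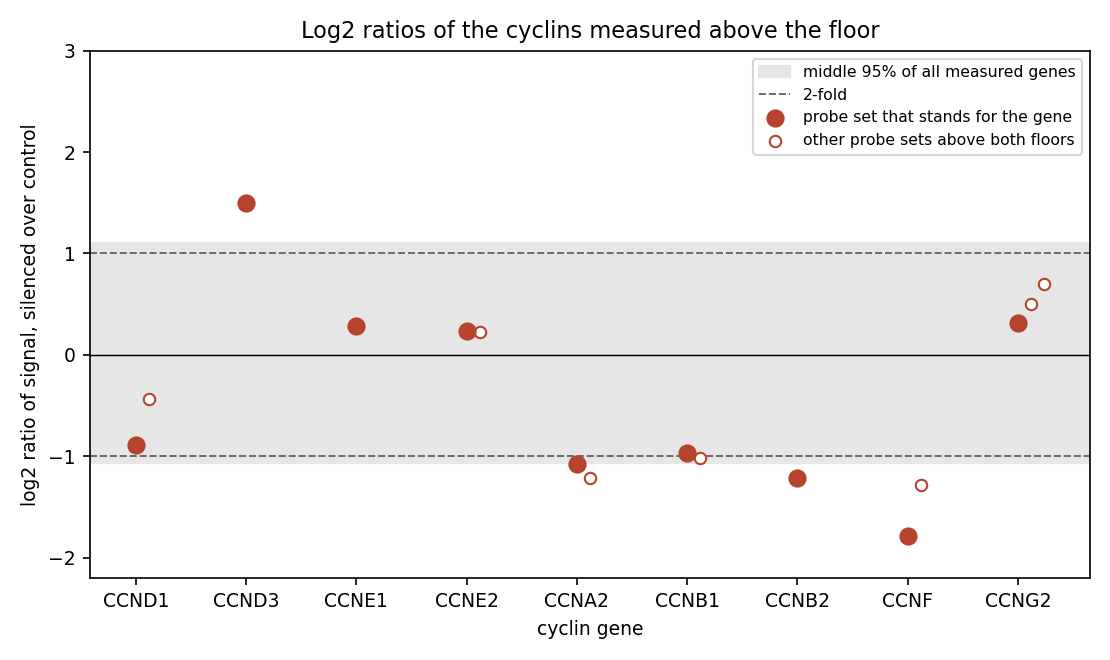
Log2 ratio of signal (silenced over control) for the 9 cyclins measured, with filled points for the probe set that stands for the gene and open points for other probe sets above both floors. Dashed lines mark 2-fold and the grey band the middle 95% of all measured genes; CCND3 at 1.50 lies above the band, and CCNB2 at -1.22, CCNF at -1.79 and, just past its edge, CCNA2 at -1.07 lie below it.

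Set against the later cyclins, the D-type cyclins did not go one way as a class. The median log2 ratio of the 2 measured D-type cyclins was 0.30, midway between -0.89 and 1.50, and that of the 6 cyclins of types E, A, B and F was -1.02, beside -0.02 for all measured genes. The difference of these medians was 1.32. How close CCND1 lay to the cyclins of S phase and mitosis depended on its probe set. With 208712_at its log2 ratio differed from that of CCNB1 by 0.07, of CCNA2 by 0.18 and of CCNB2 by 0.32, each within the spread of 0.45 for a difference between genes. With 208711_s_at the same differences were 0.53, 0.64 and 0.78, each outside it. By 208712_at CCND1 lay below CCNE1 by 1.18 and above CCNF by 0.90. CCND3 lay above every later cyclin, by 1.21 over CCNE1, 1.27 over CCNE2, 2.46 over CCNB1 and 3.29 over CCNF. In all 15 pairs were compared with the probe sets that stand for the genes, counting CCND3 with CCND1 and both with CCNG2, and 3 were within the spread.

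The kinases to which cyclins bind were within 2-fold as deposited. Of 9 measured CDKs, CDK-binding CKS subunits and parts of the CDK-activating kinase, 0 passed 2-fold, with a median log2 ratio of -0.04 and a range from -0.99 to 0.56. At least 2-fold lower were 3 of the 9 under the poly-A scaling. CKS2, a small CDK-binding subunit, read 8405.8 on the silenced array and 16675 on the control array, a log2 ratio of -0.99. CDK1, the partner of the B-type cyclins, read 9020.4 and 17214, a log2 ratio of -0.93. CDK4, a partner of the D-type cyclins, had a log2 ratio of 0.09 and CDK6 one of -0.35, and CDK2, the partner of the E type, one of -0.04; these 3 are given as partners and not for their size. Of 16 other genes measured that carry a cyclin name, many of them cyclins of transcription, 0 passed 2-fold. Their median was -0.09, and the widest ratios were those of CCNG1, a p53 target, at -0.68 and CCNYL1 at -0.49.

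Genes that control CDK1 activity lay mostly below 0. At least 2-fold lower were 3 of the 8 measured. The median log2 ratio of the 8 was -0.78, which ran from -1.02 to -0.60 over the alternatives. The count of lower genes was 1 to 4 over the alternatives, with the 1 found where only 4 genes of the list were measured. With the probe sets that stand for the genes, all 8 had a log2 ratio under 0 as deposited, beside 5049 of all 10514 measured genes. The number under 0 was 7 with the hybridization controls set equal, and also 7 with each gene's dimmest probe set above the floor. PLK1, a kinase that promotes CDK1 activation, read 709.9 on the silenced array and 2895 on the control array, a log2 ratio of -2.03. The phosphatase gene CDC25C read 317.4 and 1005, a log2 ratio of -1.66, and the kinase gene AURKA read 3095.7 and 7273, a log2 ratio of -1.23, and another AURKA probe set gave -1.18. The kinase WEE1, which inhibits CDK1, was named after its value was seen and had a log2 ratio of -0.09, the nearest to 0 of the 8. Another WEE1 probe set gave 0.04. Of 4 measured CDK inhibitors 2 were at least 2-fold higher, CDKN2B, an inhibitor of CDK4 and CDK6, with a log2 ratio of 1.25 on 1 probe set and 0.77 on another, and CDKN1C with 1.01. CDKN1C was dim, with 373.5 on the silenced array and 185.5 on the control array, and with the floor doubled the count was 1. The count was 1 to 3 over the alternatives.

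Transcription factors upstream of the cyclins are given by their role. FOXM1 and MYBL2, which activate mitotic genes, were at least 2-fold lower, with log2 ratios of -1.22 and -1.14. FOXM1 read 832.3 on the silenced array and 1932.9 on the control array, and MYBL2 read 2078.1 and 4564.4. The other 7 measured MuvB and NF-Y genes passed in neither direction, and the median of the list of 9 was -0.16. This median ran from -0.56 to 0.03 over the alternatives, and the count of lower genes was 1 to 2. Of 13 genes of the RB family, E2F factors and their partners, E2F7 and E2F8, which repress E2F targets, were at least 2-fold lower at -1.06 and -1.01, and the median was -0.36. Another E2F7 probe set gave -0.29, and the list's count of lower genes ran from 0 to 3 over the alternatives. Of 10 measured regulators of CCND1 transcription, JUN was higher at 1.10 and EGR1 lower at -1.04, and the median was -0.10. Other EGR1 probe sets reached -0.18, and 1 of the 4 probe sets of SP1, which stood at -0.51, gave -1.05.

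Genes of cyclin destruction were mostly within 2-fold. The anaphase-promoting complex (APC/C) marks A- and B-type cyclins for degradation, and 15 of its subunits and regulators were measured, with a median of -0.14. Its activator CDC20, at -1.24, and its ubiquitin-conjugating enzyme UBE2C, at -1.05, were at least 2-fold lower. Probe sets of its subunit CDC16 disagreed, with -1.54 for 209658_at and 0.04 for the one that stands for the gene. CDC20 read 2520.4 on the silenced array and 5934.3 on the control array, and UBE2C read 6036.9 and 12513. Of 10 SCF genes and other genes of D- and E-type cyclin turnover 0 passed 2-fold, with the probe sets that stand for the genes, and the median was 0.07. The widest ratios were then 0.67 for FBXO4, whose control signal of 144.5 stood close to the floor, and -0.29 for CUL1. This count turned on SKP2, the substrate-binding subunit of an SCF ligase, whose probe sets disagreed and which was named after its values were seen. Its probe set 210567_s_at, which stands for the gene, read 1013.1 on the silenced array and 1057.2 on the control array, a log2 ratio of -0.06. Probe set 203626_s_at read 208.7 and 884.9, a log2 ratio of -2.08, and 203625_x_at gave -0.83. When each gene was given its probe sets' median, or its dimmest probe set above the floor, 1 gene of the list was at least 2-fold lower. Of 10 genes whose proteins cyclin F marks for degradation, NUSAP1, a spindle protein, was at least 2-fold lower at -1.19, with -0.88 on its other probe set, and the median was -0.30. The count was 0 to 2 over the alternatives. Their transcripts do not show the level of the proteins.

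Genes known as FOXO targets, the class to which CCNG2 belongs, had a median log2 ratio of 0.48 over 10 measured genes. This median ran from 0.24 to 0.66 over the alternatives. A ratio above 0 was found for 7 of the 10, beside 5112 of all 10514 measured genes. BCL6 gave 0.51 and, on another probe set, -0.31, and INSR gave -0.35 and 0.41. TXNIP, an inhibitor of thioredoxin and of glucose uptake, was at least 2-fold higher, with 2991.6 on the silenced array and 1010.6 on the control array, a log2 ratio of 1.57. With the probe sets that stand for the genes the other 9 passed in neither direction, and 4 more were under the floor on both arrays. KLF6 stood at 0.88 and gave 1.09 on another probe set. The count of higher genes was 0 to 3 over the alternatives. The proliferation marker MKI67 read 1709.3 on the silenced array and 4550.0 on the control array, a log2 ratio of -1.41. PCNA, the sliding clamp of DNA replication, had a log2 ratio of -0.28. The part of cell cycle position or cell number in the cyclin differences was not tested.

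**Figure D3:**
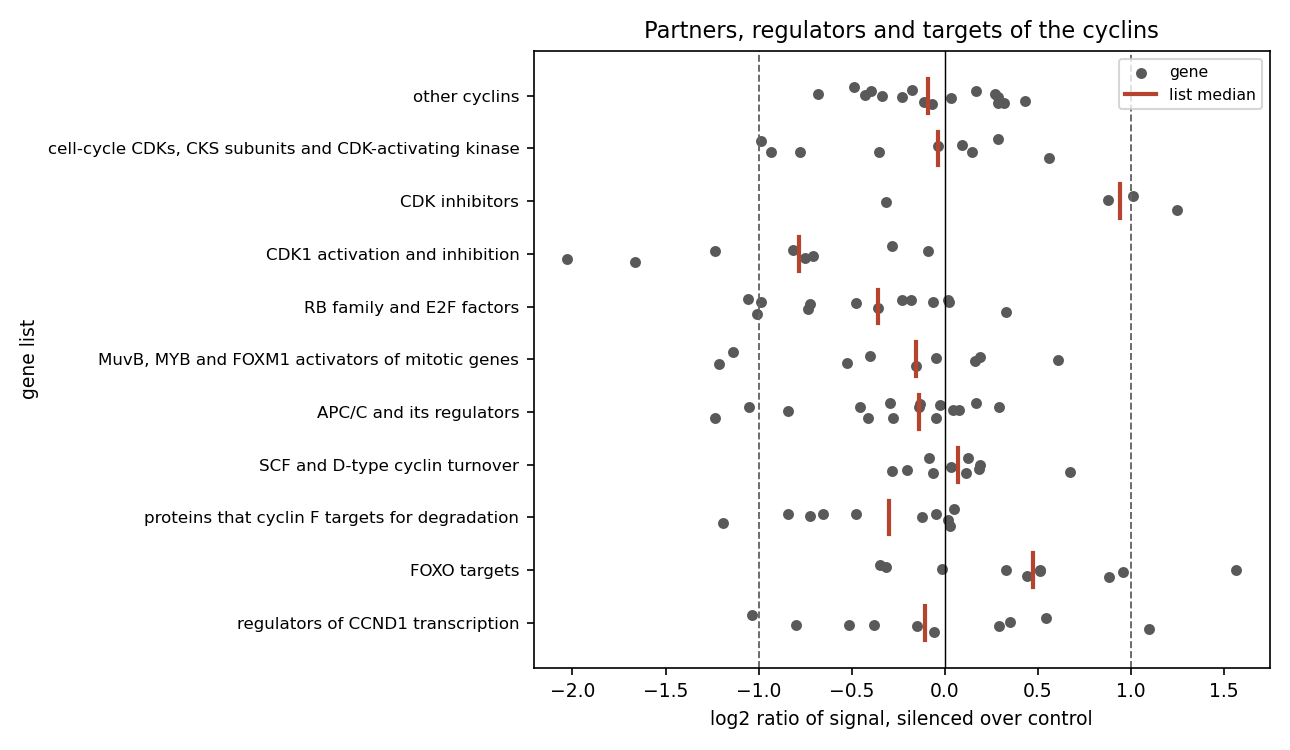
Log2 ratio of signal (silenced over control) of every measured gene in 11 lists of cyclin partners, regulators and targets, with a red bar at each list's median and dashed lines at 2-fold. As deposited, all 8 genes of CDK1 activation and inhibition lie under 0. Of these, 1 passes 0 with the hybridization controls set equal or with the dimmest probe sets above the floor. Of 10 genes of SCF and D-type cyclin turnover, 9 lie between -0.29 and 0.19, counting SKP2 at -0.06, which gave -2.08 on another probe set.

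How the arrays were scaled shifted every cyclin by the same amount. Setting the hybridization controls equal moved the log2 ratios up by 0.18 and setting the poly-A controls equal moved them down by 0.23. With the first, CCND3 stood at 1.68, CCNA2 at -0.89, CCNB2 at -1.04 and CCNF at -1.61, and 2 cyclins were at least 2-fold lower. With the second, CCND1 at -1.13 and CCNB1 at -1.20 also passed, and 5 were at least 2-fold lower. CCND3 was the 1 cyclin at least 2-fold higher under all 14 alternatives, and CCNB2 and CCNF were at least 2-fold lower under all 14. CCND3 and CCNB2 each had 1 probe set above both floors. Alternatives that changed only the floor or the choice of probe set could therefore not move these 2 ratios.

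**Figure D4:**
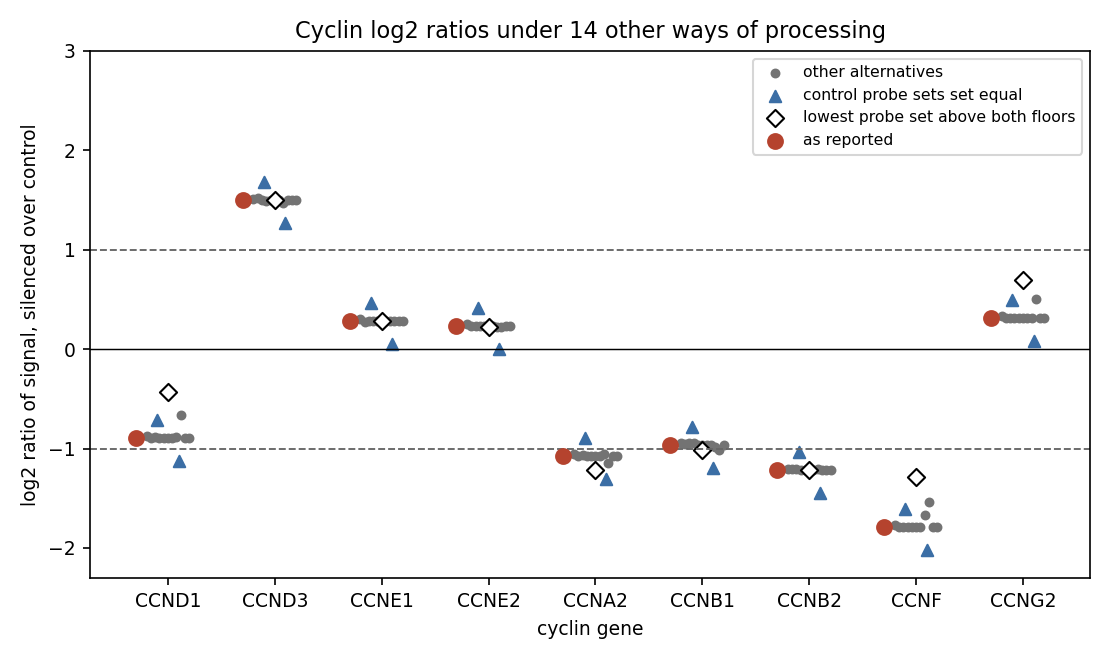
Log2 ratio of signal (silenced over control) of the 9 measured cyclins as reported (red) and under 14 other ways of processing, with dashed lines at 2-fold. Triangles, the 2 scalings on control probe sets, shift all cyclins alike; diamonds show the lowest probe set above both floors, which brings CCND1 to -0.43 and CCNF to -1.28.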

How the data were processed

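RNA from AGS cells, extracted with Trizol and labelled as biotinylated cRNA per the labels' protocols, was measured on 2 one-colour Affymetrix arrays, placed in the silenced and control groups by their titles. Per the submitters' processing notes, the deposited intensity values are linear signals that the authors computed with MAS5. Its version, scaling target and filters were not given in the sources used here. Both arrays have a 2% trimmed mean of 500.07, and this scaling was kept. Of 54675 probe sets, 41097 carry 1 gene symbol in the platform annotation and were used, 1801 carry several and 11777 are unnamed here.

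Signals below each array's floor were raised to it. Each gene was represented by the probe set of highest mean log2 signal, an _x_at probe set only where it had no other. A gene was counted at a log2 ratio of at least 1 either way. All 10 cyclins and every probe set of theirs were named. In each pathway list, up to 4 genes past 2-fold were named, or else the 2 widest. SP1, CDC16, KLF6, BCL6 and INSR were named after their values were seen, for probe sets that differed. The members and lists were chosen with earlier results of these data known. Calculations used Python 3.11.15 with numpy, pandas, scipy and statsmodels. The calling rule was tried on simulated data whose planted differences all lay past 2-fold. That trial measured neither false calls nor the recovery of smaller differences. Promoters of 6 cyclins are described one by one, and those of the other 4 are not reported here. The shares of genes by promoter letters scanned every promoter in the RefSeq table.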

Additional observations from a re-analysis of the deposited data

How the results depend on the processing

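The count of cyclins at least 2-fold higher was 1 under all 14 alternatives, of which 1, a floor from olfactory receptor genes without pseudogenes, was chosen after seeing the data. The cyclin counted was CCND3, whose ratio could not move where only the floor or the choice of probe set changed. The count at least 2-fold lower was 3 as reported, 2 with the hybridization controls set equal and 5 with the poly-A controls set equal. The median log2 ratio of the E, A, B and F cyclins ran from -1.25 to -0.84. CCND3 minus CCND1 was 2.39 as reported and 1.93 with the probe set of lowest signal above the floor, which also took the D-type median minus the later median to 1.65, against 1.32 as reported. Among the cyclins CCNE2 alone changed sign, to -0.001 under the poly-A scaling. Of all genes past 2-fold, 51.9% were higher as deposited, 75.9% with the hybridization controls set equal (576 higher and 183 lower, against 348 and 323 as reported) and 22.7% with the poly-A controls set equal (186 and 633). Without a floor 2466 genes were higher and 2459 lower. The planned differences from CCND2 were not computed, because CCND2 was under the floor on both arrays. Under the 4 alternatives with a lower floor or none CCND2 entered, and the D-type median log2 ratio was 0.09 to 0.14, against 0.30 as reported. No paired analysis was possible because each group has 1 array. Signals near the floor limit CCNF's second probe set and all of CCND2.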

Other observations

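The promoter letters of CCNB2 were looked for across the array after the cyclin values had been seen. Of 8406 measured genes with a promoter in the RefSeq table, 3.15% were at least 2-fold lower on the silenced array. Of the 188 that held the CHR letters and at least 2 CCAAT boxes in one promoter, leaving out the cyclins described above, 24 passed 2-fold in the lower direction (12.8%) and 7 in the higher (3.72%), and their median log2 ratio was -0.17. Of 991 genes with the CHR letters but not that pair, 5.15% were lower. Of 1212 with at least 2 CCAAT boxes but not that pair, 3.14% were lower. Of 6087 genes with neither, 2.46% were lower. The groups of 991 and 1212 overlap, because a gene can hold the CHR letters in 1 promoter and the CCAAT boxes in another. These shares describe 1 array against 1 array and were not tested.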
